A study of Mus musculus with 21 samples.

Results

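The positions of the 3 Foxa paralogs in the mouse genome were mapped 48 hours after cells received retroviruses, by sequencing DNA that an antibody to each protein pulled down (ChIP-seq). The data are 3 lists of peaks (stretches of enriched DNA), taken by the titles of their samples: Foxa1 with 6781 peaks, Foxa2 with 6827 and Foxa3 with 5690. Together they hold 19298 of the 53537 peaks in the 13 lists of the series.

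All 3 libraries came from embryonic fibroblasts of C57BL/6 mice, prepared at 13.5 days post coitum. The fibroblasts of the Foxa1 library carried viruses for Foxa1 and Hnf4alpha, those of the Foxa2 library Foxa2 and Hnf4alpha, and those of the Foxa3 library Foxa3 and Hnf4alpha. Hnf4alpha, written Hnf4a here, was thus present in every group, and no group lacked both factors. Each group is 1 library, precipitated with an antibody to its own paralog. A difference between paralogs therefore cannot be told apart from a difference between antibodies, cell preparations or libraries. The title code, whose meaning is not given, is R222 for Foxa1 and R209 for both Foxa2 and Foxa3. There is no replicate spread and no test, the read depth is unknown, and the intervals given are 95% Wilson intervals for counting error only.

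Foxa proteins are transcription factors that bind DNA through a forkhead (winged-helix) domain and are known as pioneer factors, which can engage their sites in closed chromatin. In the mouse, Foxa1 and Foxa2 together are required for the onset of liver development, and Foxa3 is also expressed in the liver. Hnf4a is a nuclear receptor that sustains hepatocyte gene expression, and the combination of Hnf4a with a Foxa protein converts mouse fibroblasts to hepatocyte-like cells. Sequence under the peaks and the genes beside them were not analysed here, because the positions are those of the mm9 build and no mm9 sequence or annotation was used.

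In 3 places the 48-hour Hnf4a lists hold dense chains of at least 5 peaks, which with 10 kb on each side are called dense blocks below. The first spans positions 2990016 to 3048294 of chromosome 9. The others span 98492404 to 98517474 of chromosome 2 and 7219418 to 7246934 of chromosome 10. Together they hold 19 Foxa1, 8 Foxa2 and 26 Foxa3 peaks, and the widest Foxa1 and Foxa2 peaks, of 6985 and 15228 bp, are in the chromosome 9 block. The blocks are a small part of each list but a larger part of the sites shared by Foxa3, so those results are given with and without them.

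The first comparison asks how the peaks of the 3 paralogs differ in shape. Foxa1 and Foxa2 peaks were alike in width and Foxa3 peaks were broader. The median width was 436 bp for Foxa1, 424 bp for Foxa2 and 538 bp for Foxa3, and the widest 10% of peaks began at 614, 623 and 1056 bp in the same order of lists. Outside the dense blocks 661 Foxa3 peaks were wider than 1 kb, against 28 for Foxa1 and 37 for Foxa2. The minimum width was 326, 310 and 334 bp, and 402 Foxa1, 400 Foxa2 and 167 Foxa3 peaks had exactly the minimum of their list, which is 5.93%, 5.86% and 2.93% of the peaks.

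**Figure D1:**
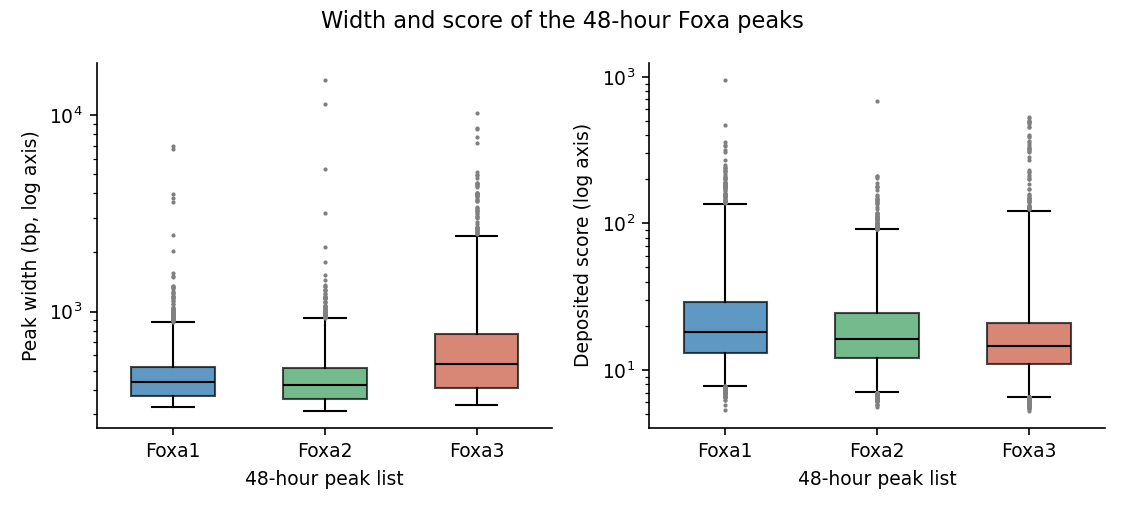
Peak width in bp (left) and deposited score (right), both on log axes, for the 48-hour Foxa1, Foxa2 and Foxa3 lists. Boxes span the middle 50% of peaks with a line at the median, whiskers reach the lowest and highest 1%, and points are peaks beyond them; the Foxa3 widths extend upward from a median of 538 bp, against 436 bp for Foxa1 and 424 bp for Foxa2.

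The deposited score, whose derivation the sources used here do not give, ranks peaks within a list. Its median was 18.3 for Foxa1, 16.2 for Foxa2 and 14.6 for Foxa3. The top of the Foxa3 list was heavier than its middle: the highest scoring 1% of peaks carried 12.6% of the summed score in Foxa3, 7.64% in Foxa1 and 5.95% in Foxa2. The single highest score was 957 in Foxa1, 686 in Foxa2 and 535 in Foxa3. Score went with width in each list, with a Spearman rho across peaks of 0.75 in Foxa1, 0.68 in Foxa2 and 0.58 in Foxa3. In the highest scoring 25% of Foxa3 peaks the median width was 812 bp and 33.2% were wider than 1 kb. In the highest scoring 25% of Foxa1 and Foxa2 peaks the median widths were 560 and 553 bp, and 1.95% and 1.87% were wider than 1 kb.

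Of the 661 wide Foxa3 peaks outside the blocks, 34 (5.14%) overlapped a Foxa1 or Foxa2 peak; in the whole Foxa3 list 96.7% of peaks overlapped neither, so few overlaps were not a trait of the wide peaks. Of the few wide peaks of the other lists, 25 of 28 for Foxa1 and 29 of 37 for Foxa2 overlapped a peak of another paralog. In the whole lists 54.1% of Foxa1 and 53.5% of Foxa2 peaks overlapped neither other list. The wide peaks also scored higher, with medians of 51.0 against 18.3 for Foxa1 and 36.4 against 16.0 for Foxa2. The part of score in these overlaps was not tested.

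The spacing of peaks was next compared. Foxa3 peaks lay in tighter groups, and more bins of 1 Mb were empty of them. The median gap to the next peak of the list was 168 kb for Foxa1, 139 kb for Foxa2 and 98.1 kb for Foxa3, although the Foxa3 list was the shortest. Gaps of at most 1 kb made up 10.2% of Foxa3 gaps, 1.55% of Foxa1 gaps and 1.73% of Foxa2 gaps. Of the 2463 autosomal bins of 1 Mb, counted without the blocks, 40.1% held no Foxa3 peak, 22.0% no Foxa1 peak and 25.3% no Foxa2 peak. The fullest bin held 32 Foxa3 peaks, 17 Foxa1 peaks or 22 Foxa2 peaks. The 279 fullest bins held 50% of the Foxa3 peaks, whereas 478 and 436 bins were needed for Foxa1 and Foxa2. The part of the shorter Foxa3 list in these bin counts was not tested.

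Runs of 3 or more peaks no more than 10 kb apart, called chains (a definition chosen after the gaps had been seen), held 745 Foxa3 peaks outside the blocks in 189 chains, which is 13.1% of the list. Foxa1 had 48 such chains with 152 peaks and Foxa2 78 chains with 248 peaks. The longest Foxa3 chain, on chromosome 1 at 45368159 to 45410290, held 19 peaks over 42.1 kb, with a best score of 61.0. It was followed by chains of 15 peaks on chromosome 4 at 88402951 to 88452039, of 14 on chromosome 2 at 50982986 to 51004884 and of 13 on chromosome 13 at 23622500 to 23678020. None of these 4 chains held a Foxa1 or Foxa2 peak. A chain of 12 Foxa3 peaks on chromosome 19 at 5821480 to 5848896, with a best score of 199.5, held 1 Foxa2 peak, ranked 6637 of 6827. Peaks covered 12.4 of the 42.1 kb of the longest chain and 20.7 of the 27.4 kb of the chromosome 19 chain. The chains on chromosomes 4, 2 and 13 had 11.8 of 49.1, 15.3 of 21.9 and 15.7 of 55.5 kb covered. With peaks within 500 bp merged, 5244 Foxa3, 6721 Foxa1 and 6759 Foxa2 peaks were left. Whether chained peaks are separate sites or parts of 1 broad stretch was not tested. Outside the blocks 24 of the 745 chained Foxa3 peaks (3.22%) overlapped a peak of Foxa1 or Foxa2, close to the 2.91% of Foxa3 peaks in no chain.

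Chains of Foxa1 and Foxa2 had at most 5 peaks outside the blocks. The Foxa1 chain of 5 peaks on chromosome 12 at 80432776 to 80456048 held 4 Foxa2 peaks as well. The Foxa1 chain of 5 on chromosome 15 at 34935441 to 34955972 held 1 Foxa2 peak. The Foxa2 chain with the most peaks, 5 in 5.57 kb on chromosome 17 at 39979959 to 39985532, held none of the other paralogs. The blocks were set by Hnf4a chains alone, so other dense places such as this were not set aside. How well its sequence can be mapped was not tested. Of the chained peaks outside the blocks, 82 of 152 for Foxa1 (53.9%) and 105 of 248 for Foxa2 (42.3%) overlapped a peak of another paralog, against 45.7% and 46.6% of the Foxa1 and Foxa2 peaks in no chain.

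The spread over chromosomes separated Foxa3 from the other paralogs. Foxa3 peaks were densest on chromosome 11 at 4.10 peaks per Mb, then chromosome 17 at 3.33, chromosome 19 at 3.20 and chromosome 7 at 2.80, against 2.14 over the genome. Foxa1 had 2.63, 2.06, 2.51 and 1.66 peaks per Mb on the same chromosomes, against 2.55 over the genome, and Foxa2 had 2.30, 2.32, 2.33 and 1.59, against 2.57. Chromosome 7 was thus the autosome with the lowest density in the Foxa1 and Foxa2 lists and the one with the fourth highest in the Foxa3 list. Foxa1 and Foxa2 were both densest on chromosome 10, at 3.25 and 3.71 peaks per Mb, where Foxa3 had 2.39. The X chromosome was sparse in all 3 lists, at 0.67 peaks per Mb for Foxa1, 0.66 for Foxa2 and 0.60 for Foxa3, and no list had a peak on the Y chromosome.

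Over the autosomes Foxa3 peaks were denser where genes per Mb were higher, and Foxa1 and Foxa2 peaks tended to be sparser there. Counts of protein-coding genes per chromosome came from the RefSeq table of GRCm38, used for the counts alone. Chromosomes 7, 11, 17 and 19 are the most gene-dense autosomes, with 24.7% of the genes on 16.2% of the length. They held 25.3% of the Foxa3 peaks, 13.6% of the Foxa1 peaks (923) and 886 of the 6827 Foxa2 peaks. Over the 19 autosomes the density of Foxa3 peaks went with gene density with a Pearson r of 0.90 and a Spearman rho of 0.92. For Foxa1 the values were -0.64 and -0.51, and for Foxa2 -0.71 and -0.66. These are descriptions over 19 points that come from the same libraries and also differ in base composition and in how much sequence can be mapped, whose part was not tested. Without the 2 chromosomes farthest from the median peak density, r was 0.88 for Foxa3, -0.51 for Foxa1 and -0.71 for Foxa2. With peaks within 10 kb joined, which removes the weight of chains, r was 0.90, -0.64 and -0.70 in the same order.

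**Figure D2:**
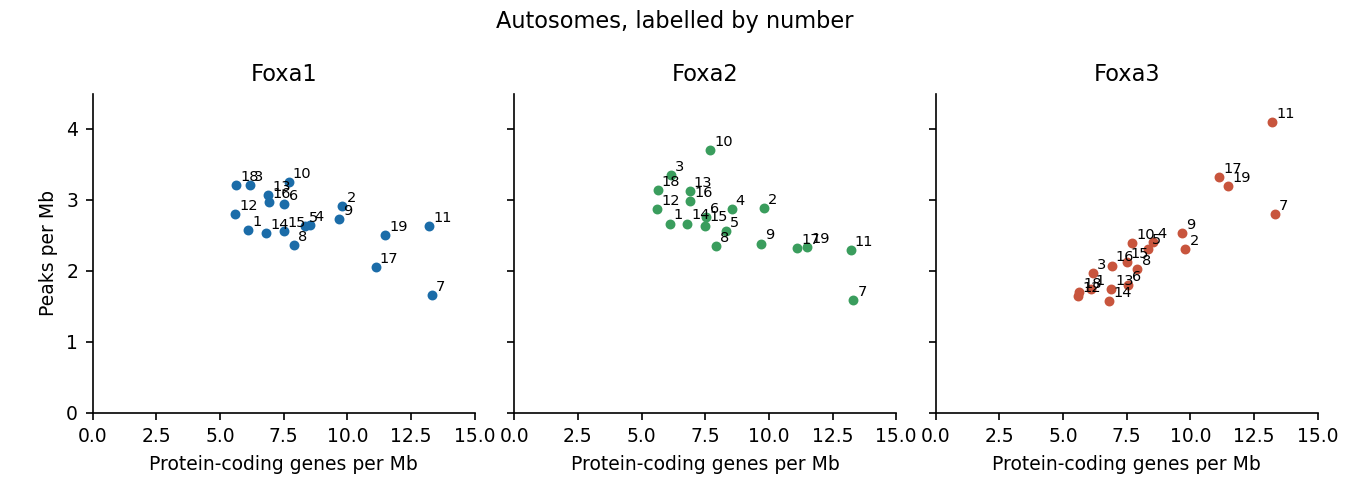
Peaks per Mb of each autosome (vertical axis) against its protein-coding genes per Mb (horizontal axis) for the 48-hour Foxa1, Foxa2 and Foxa3 lists, with 1 labelled point per chromosome. Foxa3 points climb with gene density to 4.10 peaks per Mb on chromosome 11, while Foxa1 and Foxa2 points decline to 1.66 and 1.59 on chromosome 7.

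At a scale of 1 Mb the lists of Foxa1 and Foxa2 resembled each other more than either resembled Foxa3. The Spearman rho of peak counts over the 2463 bins was 0.74 for Foxa1 and Foxa2, 0.22 for Foxa3 and Foxa1 and 0.20 for Foxa3 and Foxa2. With bins of 5 Mb, of which there were 486, the values were 0.86, 0.11 and 0.084. The bins share the libraries and mappable length, so these too are descriptions.

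Shared and own sites were then counted, a site being shared where peaks overlap by at least 1 bp. Nearly equal parts of the Foxa1 and Foxa2 lists were common to both, and few sites of either were held by Foxa3. Of Foxa1 peaks 3106 overlapped a Foxa2 peak, 45.8% of the list, and 91 overlapped a Foxa3 peak, 1.34% (1.09% to 1.64%). Of Foxa2 peaks 3092 overlapped a Foxa1 peak, 45.3% (44.1% to 46.5%), and 161 a Foxa3 peak, 2.36% (2.02% to 2.75%). In the Foxa3 list 104 peaks (1.83%) lay at Foxa1 and 180 (3.16%) at Foxa2. As a scale for these shares, a peak of the mean width of its list would touch a peak of another list from between 0.236% of mm9 positions, for Foxa2 peaks and the Foxa1 list, and 0.290%, for Foxa3 peaks and the Foxa2 list.

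The dense blocks supplied 26 of the 104 and 26 of the 180 shared Foxa3 peaks. Without the blocks, Foxa1 was met by 78 Foxa3 peaks (1.38%, 1.10% to 1.72%) and Foxa2 by 154 (2.72%, 2.33% to 3.18%). Sharing between Foxa1 and Foxa2 was 45.7% of Foxa1 and 45.2% of Foxa2 peaks without them.

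The highest scoring sites of Foxa1 and Foxa2 were shared much more often than the lists as a whole. Among the 200 highest scoring Foxa1 peaks 184 (92.0%) overlapped a Foxa2 peak, and among the 200 highest of Foxa2 194 (97.0%) overlapped a Foxa1 peak. Among the 1000 lowest scoring, 26.6% of Foxa1 and 21.5% of Foxa2 peaks did. Foxa3 was also found at many of these top sites: 16 of the 50 highest Foxa1 peaks (32.0%, 20.8% to 45.8%) and 27 of the 50 highest Foxa2 peaks (54.0%, 40.4% to 67.0%) overlapped a Foxa3 peak, beside 1.34% and 2.36% of the whole lists. Seen from Foxa3 the pattern was weaker, and the counts differed between Foxa1 and Foxa2. Of its 50 highest peaks 2 overlapped a Foxa1 peak (1.10% to 13.5% of the 50), an interval that holds the 1.83% of the whole list. At a Foxa2 peak lay 8 of the 50 (16.0%, 8.34% to 28.5%), beside 3.16% of the whole list. Here 4 of the 8 lay close together on chromosome 12. The interval treats peaks as independent, so it is too narrow for this count. Of its 200 highest 4 overlapped a Foxa1 peak and 17 a Foxa2 peak. High scoring Foxa3 peaks were also wider, and the part of width in these overlaps was not tested. None of these counts of the top 50 or 200 changed when the blocks were left out.

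**Figure D3:**
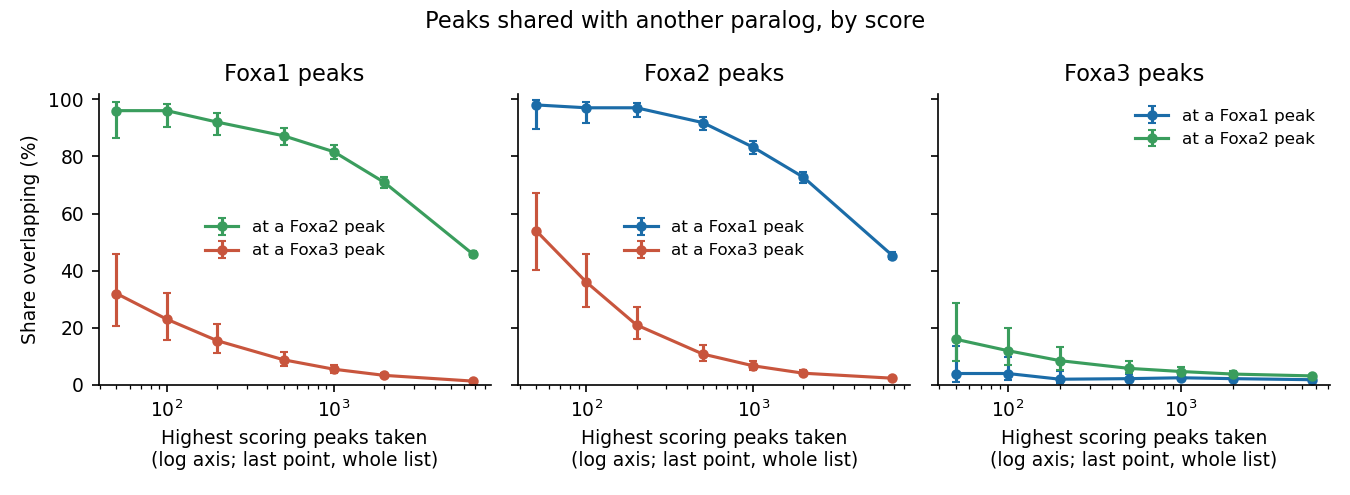
Share of the highest scoring peaks (percent, vertical axis) that overlap a peak of another paralog, against how many peaks were taken from the top (log horizontal axis, last point the whole list), with 95% Wilson intervals as bars. Of the top 50 Foxa1 and Foxa2 peaks 96.0% and 98.0% lay at each other's peaks, and 54.0% of the top 50 Foxa2 peaks lay at a Foxa3 peak, against 16.0% of the top 50 Foxa3 peaks at a Foxa2 peak.

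The same imbalance appeared in the scores of shared and own peaks. Foxa1 peaks at a Foxa3 peak had a median score of 48.6, against 17.9 for the Foxa1 peaks without one, and 76.9 for the shared peaks outside the blocks. Foxa2 peaks at a Foxa3 peak had a median of 23.2, against 16.0 for those without one. Foxa3 peaks at a Foxa1 peak had a median score of 15.4, against 14.6 for the others, and those at a Foxa2 peak 15.3, against 14.6. Outside the blocks the shared medians were 21.9 for Foxa2 at Foxa3, 14.5 for Foxa3 at Foxa1, where the direction turned, and 14.8 for Foxa3 at Foxa2. Shared sites were thus higher than the rest in the Foxa1 and Foxa2 lists and near the middle of the Foxa3 list. Between Foxa1 and Foxa2 both sides were high: shared Foxa1 peaks had a median score of 24.3 against 15.5 for the others, and shared Foxa2 peaks 21.2 against 13.7. Width followed the same order there, with medians of 486 against 402 bp for Foxa1 and 474 against 391 bp for Foxa2. Foxa3 peaks at a Foxa1 peak had a median width of 506 bp, against 538 bp for the others, and 442.5 bp outside the blocks. Those at a Foxa2 peak had 582.5 bp, against 537 bp, and 547.5 bp outside the blocks.

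Own sites were fewer among the strong Foxa1 and Foxa2 peaks than in those lists as a whole. Of the highest scoring 10% of each list, 103 of 678 Foxa1 peaks (15.2%), 77 of 682 Foxa2 peaks (11.3%) and 536 of 569 Foxa3 peaks (94.2%) overlapped neither of the other lists. In the whole lists the shares were 54.1%, 53.5% and 96.7%, so the Foxa3 value was near that of its list. The highest scoring Foxa1 peak of this kind scored 186, ranked 29 and spanned 120284154 to 120284798 of chromosome 10, 14.9 kb from the nearest Foxa2 peak. The next scored 185 and spanned 41577089 to 41577729 of chromosome 4, 173 kb from a Foxa2 peak. The highest Foxa2 peak held by Foxa2 alone scored 85.4 and spanned 157939476 to 157940038 of chromosome 2, 39.4 kb from a Foxa1 peak. The highest of Foxa3 was the top of its list, with a score of 535, spanning 87236025 to 87237459 of chromosome 11, 24.9 kb from a Foxa2 peak and 427 kb from a Foxa1 peak. The next, with a score of 522, spanned 65043230 to 65044827 of chromosome 9 and lay 87.0 kb from Foxa2 and 125 kb from Foxa1.

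Merging overlapping peaks gave 15985 regions outside the blocks, of which 69 were held by all 3 lists, 83 by Foxa2 and Foxa3 only and 8 by Foxa1 and Foxa3 only. The 69 common regions were near the top for Foxa1 and Foxa2 and ordinary for Foxa3. Expressed as the percentile of score within a list, with 100 the highest, their median was 95.9 in Foxa1, 98.7 in Foxa2 and 49.0 in Foxa3. Of the 69, 44 were in the highest 10% of Foxa1, 48 in that of Foxa2 and 9 in that of Foxa3.

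The 83 regions of Foxa2 and Foxa3 only were of another kind, with a median percentile of 44.0 in Foxa2 and 54.4 in Foxa3. Of these, 4 were in the highest 10% of Foxa2 and 18 in that of Foxa3. Foxa3 thus had more partners without Foxa1 in the Foxa2 list than partners without Foxa2 in the Foxa1 list, 83 against 8 regions. The Foxa2 and Foxa3 libraries share the title code R209, and code and paralog cannot be told apart here.

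Of the regions held by all 3, the best by summed rank lay on chromosome 10 at 86307872 to 86308791. It was first in Foxa1 with a score of 957, first in Foxa2 with 686 and 373rd in Foxa3 with 40.0. The next was chromosome 14 at 30311520 to 30312426, which ranked 23 in Foxa1, 6 in Foxa2 and 417 in Foxa3. It was followed by chromosome 5 at 91160193 to 91161006, with ranks of 12, 10 and 478, and chromosome 8 at 110208573 to 110209236, with ranks of 45, 5 and 644.5. The fifth, on chromosome 3 at 83919834 to 83920618, ranked 13 in Foxa1, 2 in Foxa2 and 862 in Foxa3. In each of the 5 the Foxa3 peak ranked far below those of Foxa1 and Foxa2.

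Strong sites without Foxa3 existed as well. Of the regions held by Foxa1 and Foxa2 only, the best by summed rank lay on chromosome 1 at 162657015 to 162657714, with scores of 208 in Foxa1 and 170 in Foxa2 and the nearest Foxa3 peak 307 kb away. The next were chromosome 9 at 61656138 to 61656992, with scores of 314 and 109.5, and chromosome 11 at 85588975 to 85589717, with scores of 202 and 113. The peak that ranked 2 in the whole Foxa1 list, on chromosome 4 at 3734032 to 3734910, scored 473 there. Its Foxa2 partner scored 70.6 and ranked 156.5, and the nearest Foxa3 peak was 23.2 kb away.

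The Foxa2 partners of the strongest Foxa3 peaks were not among the top Foxa2 peaks. Of the 56 peaks in the highest scoring 1% of Foxa3, 8 overlapped a Foxa2 peak and 2 of these also a Foxa1 peak. The partners ranked between 1850 and 6808 of 6827 in Foxa2. A group of 4 of the 8 lay within a short stretch of chromosome 12. Among them the Foxa3 peak at 55838462 to 55839998 scored 501 and ranked 3, and its Foxa2 partner scored 17.9 and ranked 2864. The Foxa3 peak at 55819402 to 55820685 scored 286, and its Foxa2 partner scored 6.47 and ranked 6808. The highest partner was on chromosome 1 at 173432130 to 173433966, where Foxa3 ranked 27, Foxa2 1850 and Foxa1 1268. Of the 67 and 68 peaks in the highest 1% of Foxa1 and Foxa2, 20 and 31 overlapped a Foxa3 peak.

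The agreement of scores at shared sites was then described over the overlapping pairs of peaks, each ranked within its list. For the 3110 pairs of Foxa1 and Foxa2 the Spearman rho was 0.39. In 709 of the 3095 pairs outside the blocks both peaks were in the highest 25% of their lists. In 249 pairs Foxa1 was in its highest 25% and Foxa2 in its lower 50%, and in 272 pairs the reverse held. Most top sites of one list were not among the top sites of the other: of the 200 highest peaks of each list 76 overlapped one of the other's 200 highest, and of the 1000 highest 421 did.

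For Foxa3 no positive rank agreement was seen over all overlapping pairs. The Spearman correlation of scores was -0.09 over 104 pairs with Foxa1 and -0.11 over 181 pairs with Foxa2, and -0.01 over 78 and -0.17 over 155 pairs outside the blocks. In the 78 pairs of Foxa3 and Foxa1, Foxa1 was in its highest 25% in 54, and Foxa3 in 19. In 8 of the 78 both were in the highest 25%. In 6 Foxa3 was in its highest 25% and Foxa1 in its lower 50%, and in 28 the reverse held. In 26 of the 155 pairs of Foxa3 and Foxa2, Foxa3 was in its highest 25% and Foxa2 in its lower 50%. In 37 the reverse held and in 11 both were in the highest 25%. No peak of the 200 highest of Foxa3 overlapped one of the 200 highest of Foxa1 or Foxa2, and of the 500 highest 3 and 5 did. The pairs with Foxa1 changed sign with the definition of a shared site: with peak centres within 200 bp rho was 0.22 over 61 pairs.

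**Figure D4:**
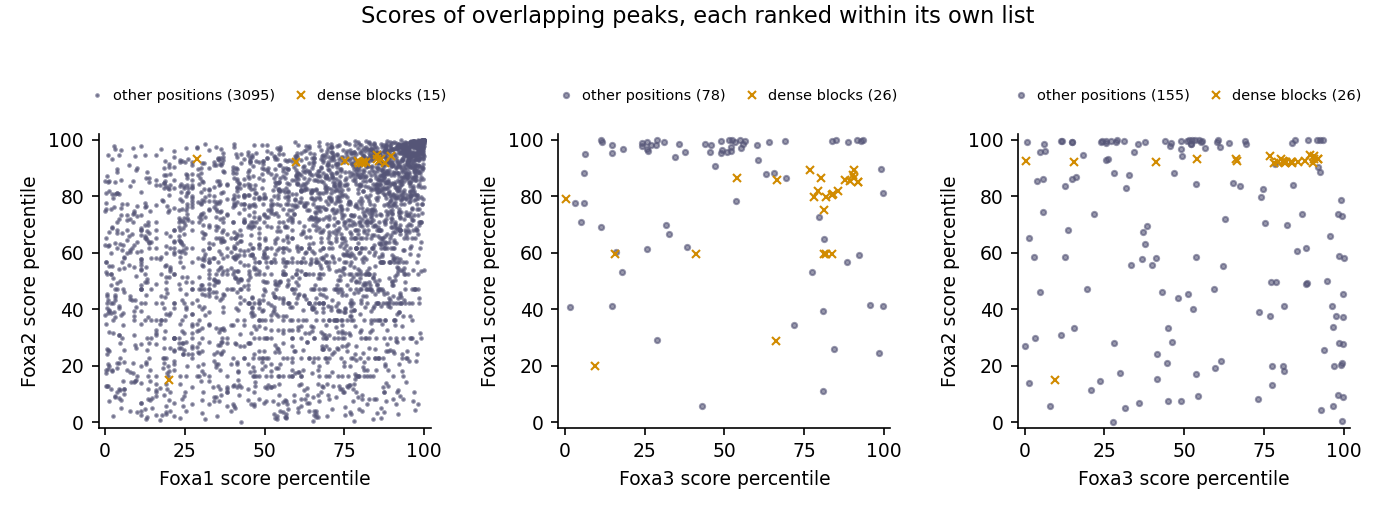
Score percentile of overlapping peaks, each within its own list (100 highest), for Foxa1 and Foxa2 (left), Foxa3 and Foxa1 (middle) and Foxa3 and Foxa2 (right), with 1 point per pair and crosses for pairs in the dense blocks. Pairs of Foxa1 and Foxa2 gather at the upper right with a rho of 0.39, while many pairs with Foxa3 lie along the top edge over a wide range of Foxa3 percentiles and, for Foxa2, some also down the right edge.

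Overlapping Foxa1 and Foxa2 peaks were closely aligned. Their centres were a median of 37.5 bp apart, 97.2% were within 200 bp, and the median shared stretch was 406 bp. Foxa3 centres were a median of 118.5 bp from those of Foxa1 and 170.5 bp from those of Foxa2, with 58.7% and 56.9% within 200 bp. Outside the blocks these medians were 93.0 and 132 bp. The widths of overlapping peaks also went together for Foxa1 and Foxa2, with a rho of 0.33 outside the blocks. There they went against each other for Foxa3, with -0.49 against Foxa1 and -0.37 against Foxa2. With the blocks included those values were 0.34, 0.06 and -0.10.

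The last comparison took the distance from each peak to the nearest peak of another paralog, counted between edges and as 0 where peaks overlap. The median was 6.13 kb from Foxa1 to Foxa2 peaks and 6.09 kb from Foxa2 to Foxa1 peaks. From Foxa1 and Foxa2 peaks to the nearest Foxa3 peak it was 235 and 246 kb, and from Foxa3 peaks it was 138 kb to Foxa1 and 143 kb to Foxa2. For comparison, the nearest peak of the same list was a median of 70.0 kb away for Foxa1, 59.3 kb for Foxa2 and 39.1 kb for Foxa3.

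Few own sites lay within 1 kb of a peak of another paralog. The shares that unrelated positions would give were not computed. Of the 3675 Foxa1 peaks without an overlapping Foxa2 peak, 64 (1.74%) lay within 1 kb of one and 392 (10.7%) within 10 kb. Of the 3735 Foxa2 peaks without a Foxa1 peak, 65 (1.74%) lay within 1 kb of one and 453 (12.1%) within 10 kb. Their median distances were 92.8 and 78.3 kb. Of the 5500 Foxa3 peaks that overlapped neither other paralog, 84 (1.53%) lay within 1 kb of a Foxa1 or Foxa2 peak and 551 within 10 kb, with a median distance of 90.8 kb. Distances over 1 Mb were more frequent towards Foxa3: 13.3% of Foxa1 and 13.3% of Foxa2 peaks were more than 1 Mb from any Foxa3 peak, while 3.44% and 5.04% of Foxa3 peaks were that far from Foxa1 and Foxa2. The Foxa3 list is shorter and leaves more bins of 1 Mb empty, as described above, so the directions are not alike.

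**Figure D5:**
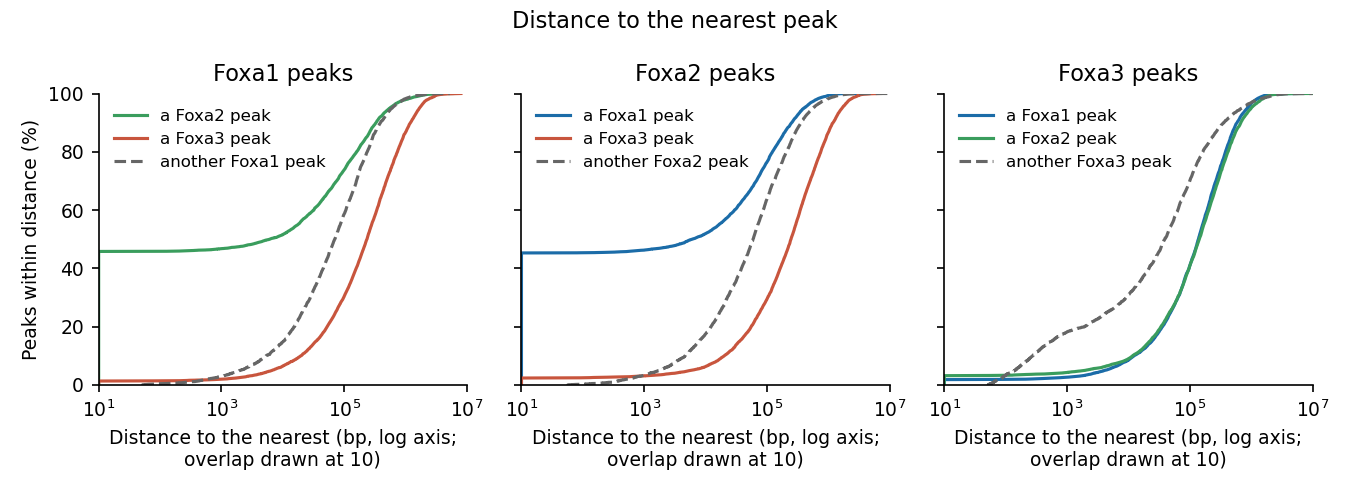
Cumulative share of peaks (percent, vertical axis) against the distance to the nearest peak (bp, log horizontal axis, overlaps drawn at 10), for Foxa1, Foxa2 and Foxa3 peaks; coloured lines give the other paralogs and the dashed line another peak of the same list. Foxa1 and Foxa2 lines to each other start at 45.8% and 45.3%, while Foxa3 lines start at 1.83% and 3.16% and stay below the dashed line over most distances.

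The 48-hour Hnf4a lists are short, with 418 peaks in the cells given Foxa1, 453 in those given Foxa2 and 370 in those given Foxa3, of which 290, 328 and 251 lay outside the blocks. Of these, 70 (24.1%, 19.6% to 29.4%), 59 (14.2% to 22.5%) and 29 (11.6%, 8.17% to 16.1%) overlapped a Foxa region of any of the 3 lists. The share of Foxa regions that can meet a Hnf4a peak is bounded by these list lengths. Outside the blocks 103 of the 15985 Foxa regions (0.644%) overlapped a Hnf4a peak of any of the 3 groups. The count was 3 of 83 for regions of Foxa2 and Foxa3 only (3.61%, 1.24% to 10.1%), 26 of 3011 for regions of Foxa1 and Foxa2 only (0.864%), 26 of 5500 for Foxa3 alone (0.473%), 31 of 3651 for Foxa2 alone (0.849%) and 17 of 3663 for Foxa1 alone (0.464%). For the regions held by all 3 it was 0 of 69, with an upper interval bound of 5.27%, and 3 regions would make 4.35%. For Foxa1 and Foxa3 only it was 0 of 8, with an upper interval bound of 32.4%.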

How the data were processed

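ChIP-seq peak lists of 3 samples were compared, 1 library per group and grouped by the sample titles. The 48-hour Hnf4a lists were used for the dense blocks and 1 overlap. Each file lists a chromosome, start, end, peak name and score. The score is the value the authors deposited for each peak, and how it was computed, whether an input was used and whether scores are comparable between lists are not given in the sources used here. The submitters' processing notes name the build mm9 and, with no statement of what each did, MACS2 2.1.0, bedtools 2.16.2 and BWA 0.6.2.

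Positions are mm9 with the first base counted as 1. The mm9 chromosome lengths were entered by hand, and 1 Foxa2 peak ended past its chromosome, by 42 bp. Peaks were shared at an overlap of at least 1 bp. Regions were formed by merging overlapping peaks of the 3 lists. Gaps and distances run between peak edges. Intervals are 95% Wilson intervals. A count of 0 Hnf4a overlaps is given with its upper Wilson bound and, for the regions held by all 3, with the share that 3 counts would make. Spearman rho and Pearson r are descriptions without p-values. Overlap, distance and chain code was tested on simulated data.

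The members, regions and settings were chosen with earlier results of these data known. Regions named by rule were the 3 highest scoring peaks of each list, the 3 highest that overlap neither other list, the 5 best by summed rank held by all 3 lists, the 3 best held by Foxa1 and Foxa2 only, and shared Foxa3 peaks of the highest 1%; the text prints some of them. Chains, the comparison with gene counts and the bins were chosen after the data were seen. Alternatives were other definitions of a shared site, subsets by score, list length or chromosome, merged peaks and removal of the blocks. Gene positions, motifs and iHep lists were left out. Computation used pandas 2.3.3 and NumPy 2.4.6 with SciPy 1.17.1 under Python 3.11.15, and figures were drawn with matplotlib 3.10.9.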

Additional observations from a re-analysis of the deposited data

How the results depend on the processing

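With 1 library per group the spread between replicates, and so the stability of any value, is unknown, and read depth, which limits how many weak sites a list holds, is unknown too. No paired analysis was possible because each group has 1 library. A value is counted as moved where it left its 95% interval or, for counts of regions, changed by over 1.5 times. Of 132 recomputed values, 104 did not move, 27 moved and 1 changed sign. Some had no room to move: equal list length leaves the shortest list, Foxa3, and its median gap of 98.1 kb as they were. The blocks hold 0.28% of Foxa1, 0.12% of Foxa2 and 0.46% of Foxa3 peaks, so medians of whole lists could hardly move without them. The tally is thus no measure of stability. The 104 are 92 planned values and 12 correlations of peak density with gene density. Those 12 were chosen after the data were seen, and their intervals, over 19 autosomes, are wide. The cause was not tested, except that a subset by score or equal list length holds fewer peaks by construction.

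Counting a site as shared when centres lay within 200 bp gave 44.6% of Foxa1 at Foxa2, 0.900% of Foxa1 and 1.51% of Foxa2 at Foxa3, and 1.07% and 1.81% of Foxa3 at Foxa1 and Foxa2, and rho of Foxa3 and Foxa1 scores changed sign to 0.22. With peaks set to 250 bp on each side of their centres 1.48% and 2.58% of Foxa3 peaks lay at Foxa1 and Foxa2, and without the blocks 1.38% and 2.72%. In the upper 50% of each list by score 1.55% of Foxa2 peaks lay at Foxa3 and 2.39% of Foxa3 peaks at Foxa2. That subset left 34 regions held by all 3, 1478 by Foxa1 and Foxa2 only and 2773 by Foxa3 only, with rho of Foxa3 and Foxa2 scores at -0.35 and median widths of 507, 493 and 683 bp for Foxa1, Foxa2 and Foxa3. Among peaks that do not overlap, the median distance was 92.8 kb from Foxa1 to Foxa2, 78.3 kb from Foxa2 to Foxa1 and 152 kb from Foxa3 to Foxa2. With lists of equal length it was 158 kb from Foxa3 to Foxa1 and 172 kb from Foxa3 to Foxa2, and the median gaps were 203 kb for Foxa1 and 172 kb for Foxa2. With peaks within 500 bp merged Foxa3 had a median width of 563 bp and a median gap of 117 kb.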
